A study of Homo sapiens with 10 samples.

Results

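Glucose removal in control clones covers 4 of the 10 RNA sequencing libraries of a study on BACH1, a transcription factor that represses heme and antioxidant genes, in MDA-MB-231 cells. MDA-MB-231 is an established human triple-negative breast cancer line of mesenchymal shape. The 4 libraries were chosen by their labels alone: Ctrl clones 1 and 2, labelled with the WT genotype, after 40 hours in DMEM with 0 g/liter glucose, and the same clones after 40 hours in DMEM with 4.5 g/liter glucose. The other 6 libraries come from 3 BACH1 KO clones under the same conditions, and they enter here for the spread between libraries and for a comparison of responses. Each library is a single monoclonal line at a single time, so the n is 2 clones at 0 g/liter and 2 clones at 4.5 g/liter. The study's methods name fetal bovine serum as the general supplement of its culture medium unless otherwise specified. They give no separate serum or pyruvate for the medium without glucose, and how the Ctrl clones were made is not given in the sources used here. No label says that a clone was grown in more than 1 culture, so a p-value measures the spread between clones and libraries, which may be partly technical.

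Glucose feeds glycolysis and lactate release, the pentose phosphate pathway that makes NADPH, and the hexosamine pathway that supplies sugar chains for proteins of the endoplasmic reticulum. Cells sense its loss in several ways: the kinase AMPK responds to falling energy, the Mondo and MLX factors stop driving TXNIP when glucose 6-phosphate runs out, and misfolded proteins or missing amino acids raise ATF4 through the integrated stress response. Immediate early genes such as FOS and EGR1 are switched on by kinase cascades after growth signals or stress, usually for minutes to hours.

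Values are TPM, a share of a library's messages corrected for transcript length and scaled to a fixed total, so a gene can gain TPM because others lose it. Of the 12832 genes with at least 1 TPM in 2 of the 4 Ctrl libraries, 1011 (7.88%) were called higher and 2171 (16.9%) lower at 0 than at 4.5 g/liter (limma on log2(TPM + 1), two-sided, Benjamini-Hochberg adjusted p under 0.05). Unless a setting is named, called and not called refer to this fit of group means, which does not pair the libraries of a clone. Below, a log2 fold change is the difference of mean log2(TPM + 1), 0 minus 4.5 g/liter, with its standard error, and it understates the change of genes at a few TPM. The rises were few and large, and the falls were many and shallow. The median log2 fold change was 1.18 over the genes called higher and -0.65 over those called lower. At a log2 fold change of at least 1 in size 635 genes (4.95%) were called higher and 194 (1.51%) lower. At 2 or more there were 167 genes called higher (1.3%) and 0 called lower, and at 4 or more there were 22 called higher (0.171%); 4962 genes had an unadjusted limma p under 0.05 in either direction. All 3182 called genes (24.8%) moved the same way in both clones, with no overlap between the 0 and 4.5 g/liter libraries. The same libraries gave the calls, so this largely follows from the calls and is no separate support. Some genes that were not called, such as HIF1A, also had no overlap. Across the 12832 genes the log2 differences of the clones had a Pearson r of 0.863, a description over genes that share libraries.

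**Figure D1:**
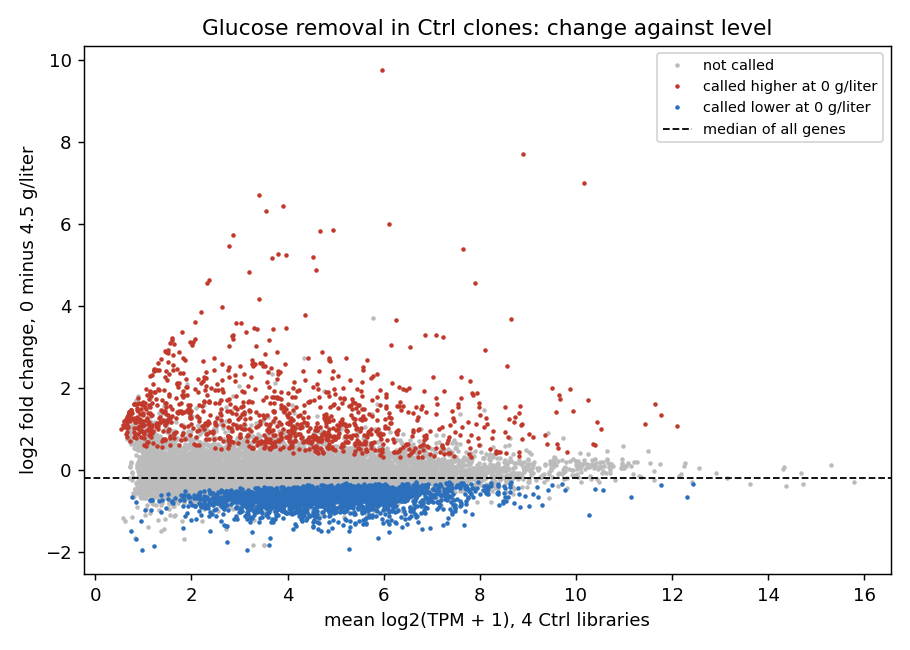
Log2 fold change (0 minus 4.5 g/liter glucose, Ctrl clones, log2(TPM + 1) scale) against the mean log2(TPM + 1) of the 4 Ctrl libraries, 1 point per gene of 12832 tested. Red points are the 1011 genes called higher and blue points the 2171 called lower, grey points the rest, and the dashed line is the median of all genes at -0.18; red points reach 9.75 and no blue point lies below -1.95.

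The fall needs to be read against a shift of the whole table. The median log2 fold change over all tested genes was -0.18, and it was -0.00203 after median-ratio scaling, which sets the typical gene to no change. With that scaling 1373 genes (10.7%) were called higher and 812 (6.33%) lower, and with quantile normalization 1156 (9.01%) and 1252 (9.76%). Genes called higher held 13.3% of all TPM at 0 g/liter and 4.62% at 4.5 g/liter. HSPA1A and HSPA1B, which are near-identical copies, and HSPA6, all heat shock proteins, together held 2.18% at 0 g/liter and 0.0135% at 4.5 g/liter. Mitochondrially encoded transcripts held between 23.3 and 24.7% of TPM without glucose, against 26.1 to 27.1% with it. With a block for the clone, which compares each clone with itself, 1673 genes (13%) were called higher and 3892 (30.3%) lower. Without any 1 of the 4 Ctrl libraries the counts were 353 to 390 higher and 431 to 708 lower. The depth of the libraries is unknown, since TPM keeps none of it. A count of list members under a scaling or with the block is to be read against that setting's share of all genes above.

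The identity markers matched the line with exceptions. VIM, the mesenchymal filament, was at 1625 and 1481 TPM at 0 g/liter and 1593 and 1650 TPM at 4.5 g/liter, and CD44 and MSN were also high. ESR1 and PGR, the steroid receptors, stayed under 1 TPM in all 4 Ctrl libraries, but ERBB2 was at 19.8 to 34.5 TPM and GATA3 at 13.8 to 27.2 TPM. Of 18 markers of other cell types, 15 or 16 were under 1 TPM in each Ctrl library. Their sum was 162 and 162 TPM at 0 g/liter and 90.2 and 108 TPM at 4.5 g/liter, nearly all of it CD68, a lysosomal glycoprotein that is also used as a macrophage marker. PTPRC, the pan-leukocyte marker, was under 0.2 TPM in all 4.

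Promoters of 6 genes described below are shown because each holds, in lower case with the match in capitals, a short element of a factor family that moved. They run from 250 bases before to 50 after the RefSeq start (GRCh38.p14), 5′ to 3′ on the gene's strand. The first 3 hold the AP-1 element TGANTCA, bound by FOS and JUN proteins: MMP10 (chr11:102780579-102780878, minus strand), XIRP1 (chr3:39192546-39192845, minus) and CXCL8 (chr4:73740319-73740618, plus). ATF3 (chr1:212565157-212565456, plus) and GADD45G (chr9:89604762-89605061, plus) hold the C/EBP-ATF element TGATGNAA, in GADD45G on the opposite strand. PPP1R15A (chr19:48872171-48872470, plus) holds the CRE element TGACGTCA, bound by CREB and ATF proteins.
MMP10: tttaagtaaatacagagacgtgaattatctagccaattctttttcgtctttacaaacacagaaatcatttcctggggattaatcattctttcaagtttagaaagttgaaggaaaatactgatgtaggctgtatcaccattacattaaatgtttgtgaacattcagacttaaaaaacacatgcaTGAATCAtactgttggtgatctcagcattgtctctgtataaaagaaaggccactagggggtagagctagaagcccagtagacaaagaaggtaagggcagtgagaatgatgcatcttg
XIRP1: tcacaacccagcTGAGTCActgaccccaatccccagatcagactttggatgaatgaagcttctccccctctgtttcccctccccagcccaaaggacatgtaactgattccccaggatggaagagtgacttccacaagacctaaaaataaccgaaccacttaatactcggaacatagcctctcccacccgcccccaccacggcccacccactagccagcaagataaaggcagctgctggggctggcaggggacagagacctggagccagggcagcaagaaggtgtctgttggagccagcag
CXCL8: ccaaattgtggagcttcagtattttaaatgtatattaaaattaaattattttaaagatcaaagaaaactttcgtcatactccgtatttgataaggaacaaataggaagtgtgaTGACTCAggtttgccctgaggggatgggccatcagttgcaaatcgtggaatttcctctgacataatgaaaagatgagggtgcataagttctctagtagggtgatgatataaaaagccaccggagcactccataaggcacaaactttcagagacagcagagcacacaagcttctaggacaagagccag
ATF3: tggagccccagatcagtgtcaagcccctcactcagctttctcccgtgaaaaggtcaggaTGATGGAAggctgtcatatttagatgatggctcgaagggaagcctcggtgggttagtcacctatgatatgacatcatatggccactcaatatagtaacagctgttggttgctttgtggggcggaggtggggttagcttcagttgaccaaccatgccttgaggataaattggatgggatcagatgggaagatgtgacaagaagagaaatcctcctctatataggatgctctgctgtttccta
GADD45G: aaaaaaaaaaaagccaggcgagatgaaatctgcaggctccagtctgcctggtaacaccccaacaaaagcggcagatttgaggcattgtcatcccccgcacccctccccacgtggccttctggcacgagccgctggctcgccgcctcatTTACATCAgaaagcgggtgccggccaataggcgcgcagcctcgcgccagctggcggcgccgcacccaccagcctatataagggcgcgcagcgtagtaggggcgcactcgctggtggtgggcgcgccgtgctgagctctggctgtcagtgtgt
PPP1R15A: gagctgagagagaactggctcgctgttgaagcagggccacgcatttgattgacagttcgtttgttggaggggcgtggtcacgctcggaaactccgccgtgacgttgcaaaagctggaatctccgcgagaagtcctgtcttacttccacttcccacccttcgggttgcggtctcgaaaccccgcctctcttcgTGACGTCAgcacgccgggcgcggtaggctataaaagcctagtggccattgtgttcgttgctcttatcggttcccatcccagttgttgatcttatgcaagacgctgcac
Both strands were searched, and where RefSeq lists several starts the first was used; in XIRP1 the AP-1 match overlaps a match to the antioxidant element TGACNNNGC. Of the 12832 tested genes 9889 had a promoter in the table, 780 of those called higher and 1827 of those called lower. TGANTCA was in 7.18% of promoters of genes called higher and 3.12% of genes called lower, against 4.47% of all tested. TGACGTCA was in 4.49%, 3.56% and 3.30% of the same groups, and TGATGNAA in 2.31%, 0.985% and 1.60%. The lysosomal element GTCACGTG was in 6.28%, 3.67% and 4.50%, and TGACNNNGC in 17.6%, 14.1% and 15.2%. The endoplasmic reticulum stress element (ERSE) was in 11 promoters of genes called higher, in 0 of genes called lower, and in 16 of all tested. The heat shock element (HSE) was in 9, 2 and 31. Over all 35116 promoters of the table, which lists some genes more than once, 7.71% held TGANTCA. These shares are a description of letters within 300 bases and were not tested.

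Of the 36432 symbols kept, 72 (0.198%) were at most 0.5 TPM in both 4.5 g/liter libraries and at least 2 TPM in both 0 g/liter libraries. The values of this contrast chose them, so their change is a description; 70 of the 72 were called, all but RNA5SP383 and HMGN1P18, which are named after their values were seen. Most were low even without glucose: the median was 4.77 TPM at 0 g/liter, 38 averaged under 5 TPM, and 10 reached 10 TPM in both 0 g/liter libraries. By GENCODE, 55 were protein coding and 10 pseudogenes, and 7 symbols had no match. A further 19 genes lay just outside the limits, at up to 0.6 TPM with glucose and at least 1.8 TPM without it. In the other direction 1 symbol (0.00274%), AGAP13P, a pseudogene, met the mirrored rule, at 0 and 0 TPM at 0 g/liter, against 2.07 and 2.32 TPM at 4.5 g/liter.

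Values below are given for clones 1 and 2 in that order. ARC, a synaptic immediate early protein, was at 110.3 and 106 TPM at 0 g/liter, against 0.0357 and 0.0519 TPM at 4.5 g/liter. FOSB, an AP-1 subunit, was at 97.9 and 109.8 TPM at 0 g/liter, against 0.320 and 0.303 TPM at 4.5 g/liter. XIRP1, an actin-binding protein of striated muscle, was at 48.0 and 41.8 TPM at 0 g/liter, against 0.0614 and 0.0147 TPM at 4.5 g/liter. These were the highest protein-coding genes of the list. GADD45G, a stress-induced inhibitor of cyclin B and CDK1, was at 22.9 and 23.5 TPM at 0 g/liter, against 0.0620 and 0 TPM at 4.5 g/liter. EGR3, a zinc finger factor downstream of MAP kinases, was at 10.5 and 10.1 TPM at 0 g/liter, against 0.141 and 0.0418 TPM at 4.5 g/liter. NR4A3, an orphan nuclear receptor, was at 7.29 and 9.04 TPM at 0 g/liter, against 0.399 and 0.358 TPM at 4.5 g/liter. The 2 clones were close to each other at 0 g/liter in each of these. That no 4.5 g/liter library passed 0.5 TPM is set by the rule for the list.

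Nearby stromelysins and a metabolic switch were among them too. MMP3 (GRCh38, chr11:102835801-102843609) was at 15.4 and 17.5 TPM at 0 g/liter, against 0.181 and 0.228 TPM at 4.5 g/liter. MMP10 (chr11:102770502-102780628), whose promoter with the AP-1 letters is shown, was at 7.20 and 7.97 TPM at 0 g/liter, against 0 and 0.0182 TPM at 4.5 g/liter. Both are proteases of the extracellular matrix. PDK4, the kinase that switches off pyruvate dehydrogenase in fasting muscle and liver, was at 9.89 and 12.5 TPM at 0 g/liter, against 0.289 and 0.480 TPM at 4.5 g/liter. FABP3, the fatty acid binding protein of heart, was at 9.55 and 11.8 TPM at 0 g/liter, against 0.416 and 0.262 TPM at 4.5 g/liter. In both genes clone 2 had the higher value at 0 g/liter. HEY1, a Notch target, was at 7.65 and 8.57 TPM at 0 g/liter, against 0.170 and 0.287 TPM at 4.5 g/liter. DLX3, a homeobox factor of skin and bone, was at 11.9 and 9.63 TPM at 0 g/liter, against 0.453 and 0.356 TPM at 4.5 g/liter, and LBH, a transcriptional cofactor, at 7.08 and 7.19 TPM at 0 g/liter, against 0.157 and 0.157 TPM at 4.5 g/liter. C11orf96 was at 12.6 and 14.8 TPM at 0 g/liter, against 0.0926 and 0.319 TPM at 4.5 g/liter.

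Several names on the list are uncertain because near copies or overlapping genes share reads. HSPA7, at 25.7 and 23.8 TPM at 0 g/liter, against 0.0310 and 0.0596 TPM at 4.5 g/liter, is a pseudogene close in sequence to HSPA6. EID3, at 6.71 and 9.64 TPM at 0 g/liter, against 0.0768 and 0.0892 TPM at 4.5 g/liter, lies within the span of TXNRD1 on the same strand of chromosome 12, and TXNRD1 itself rose. HIST2H2AA4 was listed at 0 in both 4.5 g/liter libraries and at 7.52 and 9.06 TPM at 0 g/liter, and it has a near-identical copy, HIST2H2AA3. KRTAP3-2, a hair keratin-associated gene with close relatives, was listed at 0 with glucose and at 6.70 and 9.60 TPM without. RNA5SP202, a 5S ribosomal pseudogene, was listed at 0 with glucose and at 53.2 and 51.6 TPM without. In all, 12 of the 72 were listed at 0 in both 4.5 g/liter libraries, and no fold is given for them.

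The BACH1 KO libraries did not choose these genes, and their values are described here. The KO calls come from the same fit and share its estimate of the spread with the Ctrl calls, so they are no separate support. All 72 passed the filter of 1 TPM only through the 0 g/liter Ctrl libraries. In the KO clones 61 of the 72 were called higher at 0 than at 4.5 g/liter, against 9.29% of all tested genes. A single member, AP000781.2, was called lower in the KO clones (21% of all tested): it was at 11.3 and 12.2 TPM at 0 g/liter, against 0.329 and 0.436 TPM at 4.5 g/liter in Ctrl clones, and averaged 10.6 ± 5.87 TPM at 0 g/liter and 27.3 ± 4.10 TPM at 4.5 g/liter (SD, n = 3 each) in KO clones. In 67 of the 72 all 3 KO clones were higher at 0 g/liter. Under the same limits in the KO libraries, 28 genes were at 2 TPM or more in every KO library at 0 g/liter. Of those, 14 were also at 0.5 TPM or less in every KO library at 4.5 g/liter. For these counts over KO libraries no share over all tested genes was taken, so they are a description. None of the 72 differed between Ctrl and KO clones in the size of the response (limma interaction, adjusted p under 0.05), where 1 gene of all tested did (0.00779%). At an unadjusted limma p under 0.05 9 of the 72 and 115 of the 12832 tested genes differed. The list was chosen by its Ctrl values, which favours such differences. For AP000781.2 the adjusted p of the interaction was 0.0563, and 0.00706 in the limma fit blocked on clone.

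**Figure D2:**
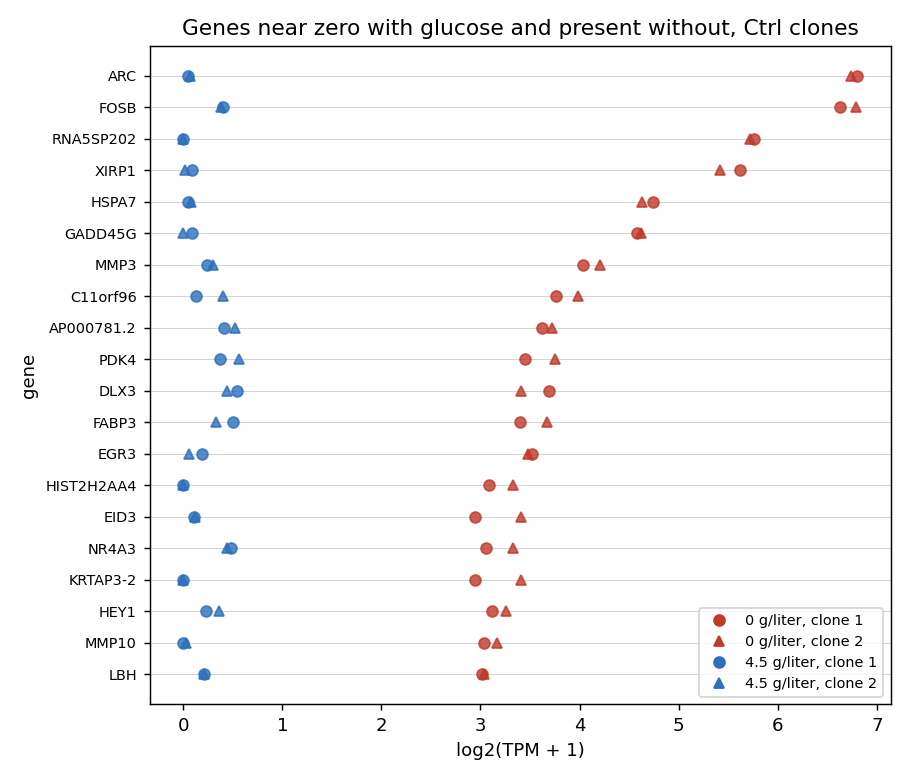
Log2(TPM + 1) of the 20 genes with the highest level at 0 g/liter among the 72 that were near zero with glucose, 1 row per gene and 1 mark per Ctrl library (circle clone 1, triangle clone 2; red 0 g/liter, blue 4.5 g/liter). Every red mark lies above 2 TPM and every blue mark at or under 0.5 TPM because the rule for the list requires such a gap. The marks of both clones lie close together beside that gap.

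Immediate early factors were the list with the largest shift. Of 21 tested, 18 were called higher and 1 lower, against 7.88% and 16.9% of all genes. The median log2 fold change was 2.15, where all genes had -0.18. FOS was at 95.2 and 95.3 TPM at 0 g/liter, against 1.62 and 1.51 TPM at 4.5 g/liter (log2 fold change 5.23 ± 0.23 SE, adjusted p = 4.02e-06). EGR1 was at 125 and 134 TPM at 0 g/liter, against 3.08 and 3.80 TPM at 4.5 g/liter (log2 fold change 4.88 ± 0.58 SE, adjusted p = 9.90e-04). NR4A1, an orphan nuclear receptor, was at 87.4 and 84.1 TPM at 0 g/liter, against 1.26 and 1.26 TPM at 4.5 g/liter (log2 fold change 5.26 ± 0.30 SE, adjusted p = 1.67e-05). Each was under 5 TPM with glucose and over 60 TPM without. NR4A2, its relative, was at 34.7 and 31.3 TPM at 0 g/liter, against 2.45 and 1.797 TPM at 4.5 g/liter (log2 fold change 3.45 ± 0.34 SE, adjusted p = 4.24e-04). FOSL1, the AP-1 subunit that this line holds at a high level with glucose, was at 891 and 786 TPM at 0 g/liter, against 680.4 and 650.1 TPM at 4.5 g/liter, and was not called (log2 fold change 0.33 ± 0.14 SE, adjusted p = 0.110). Of 13 KLF factors, zinc finger regulators of growth and differentiation, 5 (38.5%) were called higher and 0 lower. KLF4 was at 31.9 and 32.3 TPM at 0 g/liter, against 5.67 and 4.92 TPM at 4.5 g/liter (log2 fold change 2.40 ± 0.31 SE, adjusted p = 0.00145) and KLF5 at 146 and 146 TPM at 0 g/liter, against 52.1 and 44.9 TPM at 4.5 g/liter (log2 fold change 1.57 ± 0.25 SE, adjusted p = 0.00338). KLF10 was at 68.4 and 76.2 TPM at 0 g/liter, against 24.6 and 24.1 TPM at 4.5 g/liter. FOSL1 (adjusted p = 0.0190) was called in the fit blocked on clone. FOSL1 (adjusted p = 0.0312) was called with median-ratio scaling. All 7 called genes of those just named kept the call without any 1 of the 10 libraries.

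DUSP and Sprouty proteins are known to damp MAP kinase signals, and RGS proteins G protein signals. Of 26 such genes, 11 were called higher and 1 lower, against 7.88% and 16.9% of all genes. DUSP5, a phosphatase of nuclear ERK, was at 124 and 132 TPM at 0 g/liter, against 19.4 and 18.4 TPM at 4.5 g/liter (log2 fold change 2.69 ± 0.28 SE, adjusted p = 5.33e-04). DUSP2, of the same family, was at 7.21 and 6.79 TPM at 0 g/liter, against 0.296 and 0.858 TPM at 4.5 g/liter. RGS2, which turns off G protein signals, was at 192 and 194 TPM at 0 g/liter, against 2.07 and 2.75 TPM at 4.5 g/liter (log2 fold change 5.84 ± 0.33 SE, adjusted p = 1.67e-05). RGS2 had the largest log2 fold change of the list. Among 16 ID, BMP and TGF-beta feedback genes the calls were split, 7 (43.75%) higher and 4 (25%) lower, and with median-ratio scaling 8 and 2. ID2 and ID1 both block basic helix-loop-helix factors, and they moved in opposite directions. ID2 was at 132 and 147 TPM at 0 g/liter, against 0.890 and 0.385 TPM at 4.5 g/liter (log2 fold change 6.44 ± 0.59 SE, adjusted p = 3.05e-04). ID1 was at 74.5 and 77.7 TPM at 0 g/liter, against 136 and 143 TPM at 4.5 g/liter (log2 fold change -0.87 ± 0.17 SE, adjusted p = 0.00839). BAMBI, a decoy receptor for BMP and TGF-beta, was at 28.0 and 29.8 TPM at 0 g/liter, against 4.48 and 4.11 TPM at 4.5 g/liter (log2 fold change 2.50 ± 0.31 SE, adjusted p = 0.00117), and SKIL, a SMAD corepressor, at 50.4 and 58.4 TPM at 0 g/liter, against 14.0 and 13.4 TPM at 4.5 g/liter. ID1 lost the call without at least 1 of the 10 libraries (adjusted limma p up to 0.0648 without Ctrl clone 2 at 4.5 g/liter).

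Of 12 regulators of epithelial to mesenchymal transition and keratins, 2 were called higher and 0 lower, against 7.88% and 16.9% of all genes. SNAI1, the Snail repressor of E-cadherin (chr20:49982980-49988886), stood apart at 243 and 223 TPM at 0 g/liter, against 3.31 and 2.75 TPM at 4.5 g/liter (log2 fold change 5.86 ± 0.37 SE, adjusted p = 3.14e-05). SNAI2 was at 57.1 and 66.0 TPM at 0 g/liter, against 60.7 and 67.3 TPM at 4.5 g/liter, and ZEB1 at 41.3 and 43.97 TPM at 0 g/liter, against 40.0 and 38.2 TPM at 4.5 g/liter, and neither was called. The median of the list was -0.06, so the rise of SNAI1 was not shared by most of the list. Clock genes split as well, with 5 of 16 (31.25%) called higher and 1 (6.25%) lower. NR1D1, the REV-ERB alpha repressor, was at 32.6 and 30.1 TPM at 0 g/liter, against 4.70 and 5.34 TPM at 4.5 g/liter (log2 fold change 2.43 ± 0.39 SE, adjusted p = 0.00351). BHLHE41, which represses clock targets, was at 17.0 and 20.6 TPM at 0 g/liter, against 2.54 and 0.654 TPM at 4.5 g/liter, and CLOCK itself at 14.4 and 15.2 TPM at 0 g/liter, against 22.6 and 22.9 TPM at 4.5 g/liter. The EMT list had 3 called higher and 2 lower in the fit blocked on clone (13% and 30.3% of all genes). The clock list had 6 and 2 in that fit. CLOCK (adjusted p = 0.0931) was not called with median-ratio scaling. BHLHE41 and CLOCK lost the call without at least 1 of the 10 libraries (adjusted limma p up to 0.1505, for CLOCK without Ctrl clone 1 at 0 g/liter).

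Stress transcription factors and their effectors had 10 of 19 (52.6%) called higher and 0 lower, with a median of 1.30. PPP1R15A, the GADD34 subunit that restores translation after stress and whose CRE letters are shown, was at 1149 and 1177 TPM at 0 g/liter, against 43.9 and 52.8 TPM at 4.5 g/liter (log2 fold change 4.57 ± 0.27 SE, adjusted p = 2.50e-05). ATF3 was at 66.5 and 85.2 TPM at 0 g/liter, against 4.76 and 4.30 TPM at 4.5 g/liter (log2 fold change 3.79 ± 0.33 SE, adjusted p = 2.29e-04). DDIT3, the CHOP factor, was at 109 and 112 TPM at 0 g/liter, against 18.6 and 20.3 TPM at 4.5 g/liter (log2 fold change 2.45 ± 0.24 SE, adjusted p = 4.24e-04). ATF4 itself was already abundant and moved less, at 333 and 323 TPM at 0 g/liter, against 183 and 195 TPM at 4.5 g/liter (log2 fold change 0.79 ± 0.20 SE, adjusted p = 0.0196). SESN2, a leucine sensor that restrains mTORC1, was at 24.8 and 21.7 TPM at 0 g/liter, against 2.50 and 3.02 TPM at 4.5 g/liter (log2 fold change 2.69 ± 0.40 SE, adjusted p = 0.00267). KLHL24 was at 19.7 and 19.6 TPM at 0 g/liter, against 2.97 and 3.56 TPM at 4.5 g/liter. Many genes of amino acid synthesis are known ATF4 targets. Of 16 synthesis genes 3 (18.8%) were called higher and 3 (18.8%) lower, against 7.88% and 16.9% of all genes. With median-ratio scaling or quantile normalization 4 were higher and 1 lower. ASNS, asparagine synthetase, was at 133 and 137 TPM at 0 g/liter, against 44.2 and 46.0 TPM at 4.5 g/liter, and PHGDH, of serine synthesis, was not called at 76.1 and 82.1 TPM at 0 g/liter, against 35.6 and 42.3 TPM at 4.5 g/liter. The amino acid synthesis list had 8 called higher and 3 lower in the fit blocked on clone (13% and 30.3% of all genes). PHGDH (adjusted p = 0.0132) was called in the fit blocked on clone. ATF4 and ASNS lost the call without at least 1 of the 10 libraries (adjusted limma p up to 0.139, for ASNS without Ctrl clone 1 at 4.5 g/liter).

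Of 15 amino acid transporters 3 (20%) were called higher and 1 (6.67%) lower. The 2 chains of one transporter moved apart: SLC3A2, the heavy chain, was at 681 and 683 TPM at 0 g/liter, against 298 and 332 TPM at 4.5 g/liter (log2 fold change 1.11 ± 0.17 SE, adjusted p = 0.00301). SLC7A5, its leucine-carrying light chain, was at 307 and 271 TPM at 0 g/liter, against 474 and 495 TPM at 4.5 g/liter (log2 fold change -0.75 ± 0.18 SE, adjusted p = 0.0171). SLC38A2, a glutamine and alanine carrier, was at 150.4 and 142 TPM at 0 g/liter, against 50.9 and 57.9 TPM at 4.5 g/liter. With median-ratio scaling 4 transporters were called higher and 0 lower. Cytosolic tRNA synthetases had 3 of 20 (15%) called higher and 2 (10%) lower, against 7.88% and 16.9% of all genes. With median-ratio scaling they had 4 and 0. WARS, for tryptophan, was at 283 and 286 TPM at 0 g/liter, against 99.6 and 107 TPM at 4.5 g/liter (log2 fold change 1.45 ± 0.25 SE, adjusted p = 0.00492). The amino acid transporter list had 5 called higher and 2 lower in the fit blocked on clone (13% and 30.3% of all genes). The tRNA synthetase list had 6 and 5 in that fit. SLC7A5 (adjusted p = 0.0745) was not called with median-ratio scaling. SLC7A5 lost the call without at least 1 of the 10 libraries (adjusted limma p up to 0.104 without Ctrl clone 2 at 0 g/liter).

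Members of the chemokine and cytokine lists were called higher or not called, while the secreted ligand ARTN, described below, was called lower. Of 9 chemokines 6 were called higher and 0 lower, and of 17 interleukins and other cytokines 8 were higher and 0 lower, against 7.88% and 16.9% of all genes. CCL26, an eosinophil attractant, was at 49.7 and 46.8 TPM at 0 g/liter, against 0.711 and 0.737 TPM at 4.5 g/liter (log2 fold change 4.84 ± 0.35 SE, adjusted p = 7.21e-05). CXCL8, interleukin 8, whose AP-1 letters are shown, was at 61.7 and 87.5 TPM at 0 g/liter, against 7.19 and 14.5 TPM at 4.5 g/liter (log2 fold change 2.73 ± 0.37 SE, adjusted p = 0.00184). Its neighbours on chromosome 4 moved likewise. CXCL2 was at 12.9 and 17.8 TPM at 0 g/liter, against 2.47 and 4.22 TPM at 4.5 g/liter. CXCL3 was at 9.48 and 11.4 TPM at 0 g/liter, against 0.761 and 1.63 TPM at 4.5 g/liter. CXCL8, CXCL2 and CXCL3 attract neutrophils through a shared receptor. IL1B was at 34.7 and 53.2 TPM at 0 g/liter, against 5.80 and 12.7 TPM at 4.5 g/liter (log2 fold change 2.189 ± 0.35 SE, adjusted p = 0.00342) and IL1A at 9.08 and 16.3 TPM at 0 g/liter, against 1.14 and 2.88 TPM at 4.5 g/liter, both ligands of the interleukin 1 receptor. TNFSF9, the ligand of 4-1BB on T cells, was at 27.5 and 27.0 TPM at 0 g/liter, against 2.18 and 1.36 TPM at 4.5 g/liter (log2 fold change 3.36 ± 0.40 SE, adjusted p = 9.58e-04). IL6 was at 27.5 and 46.2 TPM at 0 g/liter, against 16.2 and 25.0 TPM at 4.5 g/liter, and was not called. The cytokine list had 13 called higher and 0 lower in the fit blocked on clone (13% and 30.3% of all genes). IL6 (adjusted p = 0.00204) was called in the fit blocked on clone. All 7 called genes of those just named kept the call without any 1 of the 10 libraries.

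Of 17 NF-kB subunits, inhibitors and targets 3 (17.6%) were called higher, against 7.88% of all genes, and 1 lower, with a median of 0.16. Of 29 interferon-stimulated genes 0 were called higher and 2 lower, with 4 and 2 at an unadjusted limma p under 0.05. In the fit blocked on clone these counts were 7 and 2 for NF-kB (13% and 30.3% of all genes). For the interferon list they were 6 and 4. With median-ratio scaling they were 5 and 0 for NF-kB, and 3 and 0 for the interferon list. With quantile normalization the interferon list had 2 higher and 1 lower, so the side with more interferon calls depends on the scaling. NFKBIZ, an inducible co-activator, was at 28.3 and 32.1 TPM at 0 g/liter, against 12.1 and 11.7 TPM at 4.5 g/liter (log2 fold change 1.27 ± 0.17 SE, adjusted p = 0.00146). TNFAIP3, the A20 brake on NF-kB, was at 13.3 and 17.2 TPM at 0 g/liter, against 3.42 and 4.88 TPM at 4.5 g/liter (log2 fold change 1.66 ± 0.30 SE, adjusted p = 0.00597). NFKB1, the p105 and p50 subunit, was at 14.8 and 15.4 TPM at 0 g/liter, against 22.9 and 23.1 TPM at 4.5 g/liter (log2 fold change -0.58 ± 0.14 SE, adjusted p = 0.0191). NFKB1 and TNFAIP3 thus differed in direction. IFIT1 was at 5.36 and 5.31 TPM at 0 g/liter, against 9.54 and 7.74 TPM at 4.5 g/liter, and was not called. IFIT1 (adjusted p = 0.0212) was called in the fit blocked on clone. NFKB1 (adjusted p = 0.124) was not called with median-ratio scaling. TNFAIP3 and NFKB1 lost the call without at least 1 of the 10 libraries (adjusted limma p up to 0.107, for NFKB1 without Ctrl clone 2 at 4.5 g/liter).

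Growth factors and stress hormones had 10 of 23 called higher and 0 lower, against 7.88% and 16.9% of all genes. GDF15, a hormone of mitochondrial and nutrient stress that curbs appetite, was at 37.5 and 46.3 TPM at 0 g/liter, against 2.57 and 3.35 TPM at 4.5 g/liter (log2 fold change 3.44 ± 0.45 SE, adjusted p = 0.00155). ADM, the vasodilator adrenomedullin, was at 413 and 444 TPM at 0 g/liter, against 86.8 and 88.6 TPM at 4.5 g/liter (log2 fold change 2.28 ± 0.42 SE, adjusted p = 0.00613). VEGFA, which drives vessel growth, was at 187 and 197 TPM at 0 g/liter, against 56.2 and 72.4 TPM at 4.5 g/liter (log2 fold change 1.58 ± 0.48 SE, adjusted p = 0.0414). AREG, a ligand of the EGF receptor, was at 29.8 and 41.1 TPM at 0 g/liter, against 8.11 and 8.68 TPM at 4.5 g/liter. All 4 were higher in both clones. VEGFA and ADM are also targets of hypoxia-inducible factors, and of 24 genes on that list 5 (20.8%) were called higher and 2 (8.33%) lower. NDRG1 was at 202 and 167 TPM at 0 g/liter, against 47.1 and 42.6 TPM at 4.5 g/liter (log2 fold change 2.01 ± 0.26 SE, adjusted p = 0.00152), and ZNF395 was at 25.0 and 19.3 TPM at 0 g/liter, against 42.9 and 42.1 TPM at 4.5 g/liter (log2 fold change -0.92 ± 0.16 SE, adjusted p = 0.00429). HIF1A was at 213 and 219 TPM at 0 g/liter, against 272 and 267 TPM at 4.5 g/liter, and was not called. The growth factor list had 14 called higher and 2 lower in the fit blocked on clone (13% and 30.3% of all genes). The hypoxia list had 11 and 3 in that fit. HIF1A (adjusted p = 0.0110) was called in the fit blocked on clone. VEGFA lost the call without at least 1 of the 10 libraries (adjusted limma p up to 0.189 without Ctrl clone 1 at 4.5 g/liter).

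Growth arrest genes and p53 targets had 10 of 24 called higher and 1 lower, against 7.88% and 16.9% of all genes. CDKN1A, the p21 inhibitor of cyclin-dependent kinases, was at 382 and 347 TPM at 0 g/liter, against 35.9 and 36.0 TPM at 4.5 g/liter (log2 fold change 3.31 ± 0.31 SE, adjusted p = 3.86e-04). GADD45A was at 395 and 463 TPM at 0 g/liter, against 37.3 and 48.0 TPM at 4.5 g/liter, and GADD45B at 439 and 488 TPM at 0 g/liter, against 44.9 and 51.9 TPM at 4.5 g/liter. With GADD45G above, all 3 GADD45 genes were called higher. BTG1, an antiproliferative gene, was at 67.7 and 72.3 TPM at 0 g/liter, against 10.02 and 7.53 TPM at 4.5 g/liter (log2 fold change 2.87 ± 0.31 SE, adjusted p = 6.12e-04) and BTG2 at 9.10 and 8.96 TPM at 0 g/liter, against 1.44 and 1.43 TPM at 4.5 g/liter. CDKN1B, the p27 inhibitor, was at 12.8 and 12.9 TPM at 0 g/liter, against 16.0 and 13.8 TPM at 4.5 g/liter, and was not called. The growth arrest list had 13 called higher and 2 lower in the fit blocked on clone (13% and 30.3% of all genes). All 5 called genes of those just named kept the call without any 1 of the 10 libraries.

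The BCL2 family split evenly, with 5 of 16 called higher and 5 lower, against 7.88% and 16.9% of all genes. The higher ones were BH3-only killers: PMAIP1, or NOXA, was at 83.8 and 94.9 TPM at 0 g/liter, against 21.8 and 23.7 TPM at 4.5 g/liter (log2 fold change 1.93 ± 0.31 SE, adjusted p = 0.00342). BCL2L11, or BIM, was at 28.9 and 35.8 TPM at 0 g/liter, against 8.32 and 8.90 TPM at 4.5 g/liter (log2 fold change 1.79 ± 0.34 SE, adjusted p = 0.00670), and BBC3, or PUMA, at 7.04 and 6.63 TPM at 0 g/liter, against 2.08 and 1.66 TPM at 4.5 g/liter. BIK and BMF, also of this class, were low. BIK was at 2.40 and 1.74 TPM at 0 g/liter, against 0.0640 and 0.186 TPM at 4.5 g/liter. BMF was at 2.13 and 2.188 TPM at 0 g/liter, against 0.296 and 0.633 TPM at 4.5 g/liter. Among the lower ones were 2 that protect cells. BCL2L1, or BCL-XL, was at 161 and 155 TPM at 0 g/liter, against 277 and 280.1 TPM at 4.5 g/liter (log2 fold change -0.81 ± 0.15 SE, adjusted p = 0.00600). BCL2 was at 3.30 and 2.62 TPM at 0 g/liter, against 6.22 and 5.68 TPM at 4.5 g/liter (log2 fold change -0.82 ± 0.21 SE, adjusted p = 0.0205). BOK, a killer, was also lower, at 14.0 and 10.98 TPM at 0 g/liter, against 21.8 and 25.4 TPM at 4.5 g/liter. With median-ratio scaling 5 were called higher and 2 lower. BCL2 (adjusted p = 0.0623) was not called with median-ratio scaling. BCL2L11, BIK, BMF, BCL2L1, BCL2 and BOK lost the call without at least 1 of the 10 libraries (adjusted limma p up to 0.124, for BCL2 without Ctrl clone 2 at 0 g/liter).

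Genes of sugar uptake moved both ways. Among 16 hexose transporter and Mondo/MLX genes 4 were called higher and 5 lower, against 7.88% and 16.9% of all genes. Median-ratio scaling gave 4 higher and 2 lower, and quantile normalization 3 and 3. TXNIP (chr1:145992435-145996579), which blocks glucose uptake and is the best known Mondo target, was at 19.6 and 18.6 TPM at 0 g/liter, against 76.2 and 73.1 TPM at 4.5 g/liter (log2 fold change -1.91 ± 0.33 SE, adjusted p = 0.00465). It was the second most negative change among called genes whose higher group averaged 5 TPM or more. ARRDC3, of the same arrestin family, moved the other way at 50.5 and 56.2 TPM at 0 g/liter, against 14.5 and 14.4 TPM at 4.5 g/liter (log2 fold change 1.81 ± 0.42 SE, adjusted p = 0.0154). SLC2A3, the high-affinity transporter GLUT3, was at 70.1 and 70.3 TPM at 0 g/liter, against 12.2 and 12.3 TPM at 4.5 g/liter (log2 fold change 2.43 ± 0.16 SE, adjusted p = 3.56e-05), with reads that its near copy SLC2A14 may share. SLC2A1, or GLUT1, was at 133 and 132 TPM at 0 g/liter, against 230.1 and 245 TPM at 4.5 g/liter (log2 fold change -0.83 ± 0.22 SE, adjusted p = 0.0232). SLC2A1 remained the more abundant in all 4 libraries. SLC2A1 (adjusted p = 0.0531) was not called with median-ratio scaling. ARRDC3 and SLC2A1 lost the call without at least 1 of the 10 libraries (adjusted limma p up to 0.124, for SLC2A1 without Ctrl clone 2 at 4.5 g/liter).

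Glycolysis held few calls, with a median of -0.03. Of 29 genes 2 (6.90%) were called higher and 2 (6.90%) lower, against 7.88% and 16.9% of all genes. HK1, the first enzyme, was at 130.4 and 139 TPM at 0 g/liter, against 132 and 136 TPM at 4.5 g/liter, and HK2 at 22.6 and 23.8 TPM at 0 g/liter, against 17.4 and 17.3 TPM at 4.5 g/liter, and neither was called. PFKFB3, which makes the activator of phosphofructokinase, was at 59.8 and 63.0 TPM at 0 g/liter, against 27.8 and 31.1 TPM at 4.5 g/liter (log2 fold change 1.04 ± 0.23 SE, adjusted p = 0.0128). LDHA, lactate dehydrogenase, was at 1260.2 and 1300.3 TPM at 0 g/liter, against 1828 and 1732 TPM at 4.5 g/liter (log2 fold change -0.47 ± 0.14 SE, adjusted p = 0.0389), and SLC16A3, the lactate exporter MCT4, at 125 and 128 TPM at 0 g/liter, against 188 and 201 TPM at 4.5 g/liter. The lactate genes were lower in both clones. In the fit blocked on clone the list had 5 higher and 9 lower (13% and 30.3% of all genes). With median-ratio scaling it had 4 and 0 (10.7% and 6.33% of all genes). Quantile normalization gave 3 higher and 5 lower. HK2 (adjusted p = 0.0236) was called in the fit blocked on clone. LDHA (adjusted p = 0.281) and SLC16A3 (adjusted p = 0.0563) were not called with median-ratio scaling. HK2 (adjusted p = 0.0300) was called with median-ratio scaling. PFKFB3, LDHA and SLC16A3 lost the call without at least 1 of the 10 libraries (adjusted limma p up to 0.182, for LDHA without Ctrl clone 1 at 4.5 g/liter).

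Several steps of the hexosamine pathway, which branches off glycolysis, were called higher. Of 36 hexosamine and N-glycan precursor genes 5 (13.9%) were called higher, against 7.88% of all genes, and 0 lower, but the median was -0.02. UAP1, which makes UDP-N-acetylglucosamine, was at 453 and 419.8 TPM at 0 g/liter, against 126 and 119 TPM at 4.5 g/liter (log2 fold change 1.83 ± 0.26 SE, adjusted p = 0.00216). GFPT1, the entry enzyme, was at 54.1 and 57.7 TPM at 0 g/liter, against 24.9 and 26.2 TPM at 4.5 g/liter (log2 fold change 1.10 ± 0.21 SE, adjusted p = 0.00718), and GFPT2, its second form, at 42.6 and 49.2 TPM at 0 g/liter, against 10.04 and 10.9 TPM at 4.5 g/liter. PGM3, a middle step, was at 62.8 and 76.5 TPM at 0 g/liter, against 34.2 and 38.0 TPM at 4.5 g/liter. GNPNAT1, which acts between GFPT1 and PGM3, was at 39.5 and 46.0 TPM at 0 g/liter, against 40.4 and 45.7 TPM at 4.5 g/liter, and was not called. The hexosamine and N-glycan list had 8 called higher and 5 lower in the fit blocked on clone (13% and 30.3% of all genes). GFPT1, GFPT2 and PGM3 lost the call without at least 1 of the 10 libraries (adjusted limma p up to 0.141, for PGM3 without Ctrl clone 2 at 0 g/liter).

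Genes of mitochondrial fuel use were called lower in shares close to the 16.9% of all genes. Of 34 genes of pyruvate entry and the TCA cycle 6 (17.6%) were called lower, and the 1 called higher was PDK4. CS, citrate synthase, was at 61.9 and 65.6 TPM at 0 g/liter, against 103 and 99.4 TPM at 4.5 g/liter (log2 fold change -0.66 ± 0.10 SE, adjusted p = 0.00245). OGDH was at 64.2 and 62.4 TPM at 0 g/liter, against 103 and 98.6 TPM at 4.5 g/liter (log2 fold change -0.66 ± 0.10 SE, adjusted p = 0.00244) and SDHA at 107 and 105 TPM at 0 g/liter, against 163 and 168 TPM at 4.5 g/liter (log2 fold change -0.64 ± 0.10 SE, adjusted p = 0.00279), both later steps of the cycle. With median-ratio scaling 4 were lower and in the fit blocked on clone 14, where 6.33% and 30.3% of all genes were. Fatty acid oxidation had 1 of 27 higher and 5 (18.5%) lower, and with median-ratio scaling 1 and 1. CPT1A, which carries fatty acids into mitochondria, was at 24.3 and 22.7 TPM at 0 g/liter, against 32.5 and 34.8 TPM at 4.5 g/liter (log2 fold change -0.50 ± 0.13 SE, adjusted p = 0.0253). PLIN2, the coat of lipid droplets, was the one higher, at 95.3 and 99.6 TPM at 0 g/liter, against 28.3 and 29.9 TPM at 4.5 g/liter (log2 fold change 1.71 ± 0.39 SE, adjusted p = 0.0145). The TCA list had 2 called higher and 14 lower in the fit blocked on clone (13% and 30.3% of all genes). The fatty acid oxidation list had 2 and 9 in that fit. CPT1A (adjusted p = 0.104) was not called with median-ratio scaling. PDK4, CPT1A and PLIN2 lost the call without at least 1 of the 10 libraries (adjusted limma p up to 0.151, for CPT1A without Ctrl clone 2 at 4.5 g/liter).

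Of 42 nuclear respiratory chain subunits 0 were called higher and 7 (16.7%) lower, against 16.9% lower among all genes, with a median of -0.09, above the -0.18 of all genes. With median-ratio scaling 1 was lower. Of 13 proteins encoded in mitochondria 2 (15.4%) were called lower and 0 higher, and none was lower with median-ratio scaling. MT-ND6, the one read from the light strand, was at 369.7 and 394 TPM at 0 g/liter, against 671 and 728 TPM at 4.5 g/liter (log2 fold change -0.87 ± 0.21 SE, adjusted p = 0.0170). MT-ND1 was at 7661 and 7440.2 TPM at 0 g/liter, against 8038 and 7667 TPM at 4.5 g/liter, and was not called. The respiratory chain list had 0 called higher and 11 lower in the fit blocked on clone (13% and 30.3% of all genes). The mitochondrially encoded list had 0 and 6 in that fit. MT-ND6 (adjusted p = 0.0761) was not called with median-ratio scaling. MT-ND6 lost the call without at least 1 of the 10 libraries (adjusted limma p up to 0.104 without Ctrl clone 2 at 4.5 g/liter).

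Lipid synthesis was mostly not called. Of 25 cholesterol genes 3 (12%) were called higher and 2 (8%) lower, against 7.88% and 16.9% of all genes. Of 24 fatty acid and lipid genes 2 (8.33%) were higher and 2 (8.33%) lower. With median-ratio scaling the cholesterol counts were 5 and 0. HMGCS1, an early enzyme of cholesterol synthesis, was at 55.0 and 54.4 TPM at 0 g/liter, against 18.0 and 18.9 TPM at 4.5 g/liter (log2 fold change 1.52 ± 0.12 SE, adjusted p = 1.55e-04). INSIG1, which holds the SREBP pathway in check, was at 64.0 and 67.7 TPM at 0 g/liter, against 22.3 and 20.9 TPM at 4.5 g/liter (log2 fold change 1.57 ± 0.24 SE, adjusted p = 0.00310). ACSL3, which activates fatty acids for droplets, was at 102 and 104 TPM at 0 g/liter, against 46.2 and 45.7 TPM at 4.5 g/liter. The cholesterol list had 6 called higher and 3 lower in the fit blocked on clone (13% and 30.3% of all genes). The fatty acid and lipid list had 2 and 8 in that fit. All 3 called genes of those just named kept the call without any 1 of the 10 libraries.

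**Figure D3:**
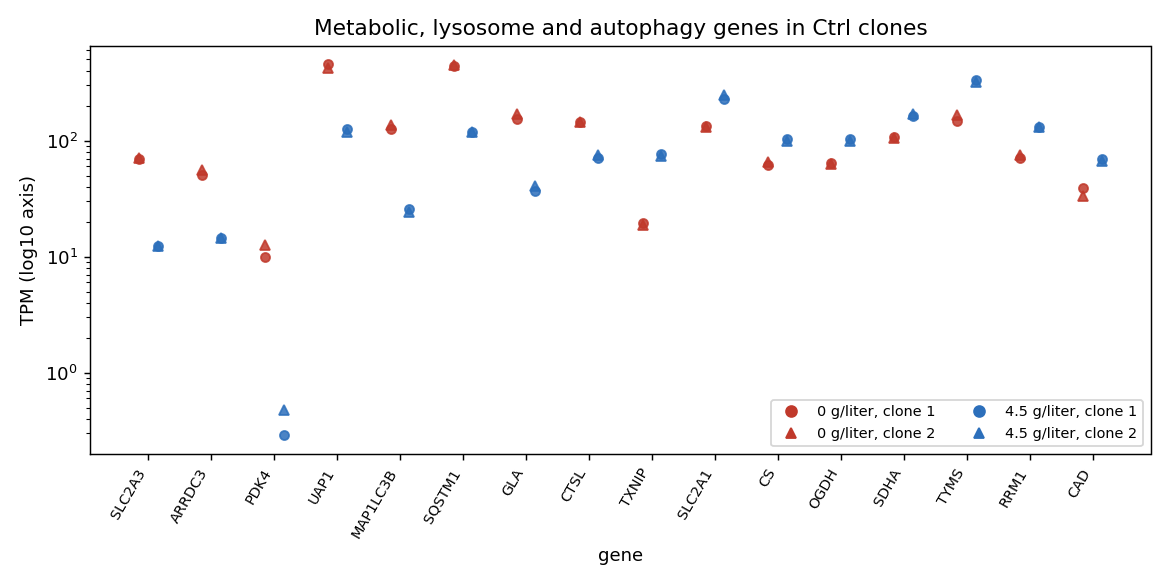
TPM on a log10 axis of 16 genes of sugar uptake, hexosamine and TCA steps, lysosome, autophagy and nucleotide synthesis, 1 mark per Ctrl library (circle clone 1, triangle clone 2; red 0 g/liter left, blue 4.5 g/liter right). SLC2A3, ARRDC3, PDK4, UAP1, MAP1LC3B, SQSTM1, GLA and CTSL are higher at 0 g/liter in both clones, and TXNIP, SLC2A1, CS, OGDH, SDHA, TYMS, RRM1 and CAD are lower in both.

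Autophagy and lysosome genes were called higher far more often than lower. Of 31 autophagy genes 8 were called higher and 2 lower, against 7.88% and 16.9% of all genes. For 29 lysosome genes the counts were 10 and 0. MAP1LC3B, which coats the autophagosome, was at 125 and 135 TPM at 0 g/liter, against 25.8 and 24.2 TPM at 4.5 g/liter (log2 fold change 2.33 ± 0.16 SE, adjusted p = 4.95e-05). SQSTM1, the p62 cargo receptor, was at 435 and 446 TPM at 0 g/liter, against 118 and 118 TPM at 4.5 g/liter (log2 fold change 1.89 ± 0.17 SE, adjusted p = 2.96e-04). GABARAPL1, a relative of MAP1LC3B, was at 43.4 and 47.1 TPM at 0 g/liter, against 6.29 and 9.41 TPM at 4.5 g/liter (log2 fold change 2.41 ± 0.32 SE, adjusted p = 0.00149). FLCN, a brake on the lysosomal factors TFEB and TFE3, was at 35.0 and 32.9 TPM at 0 g/liter, against 15.7 and 15.7 TPM at 4.5 g/liter. GLA, alpha-galactosidase, was at 153 and 169 TPM at 0 g/liter, against 36.6 and 40.9 TPM at 4.5 g/liter (log2 fold change 2.03 ± 0.28 SE, adjusted p = 0.00193). CTSL, cathepsin L, was at 146 and 146 TPM at 0 g/liter, against 70.8 and 75.6 TPM at 4.5 g/liter (log2 fold change 0.98 ± 0.25 SE, adjusted p = 0.0215). LAMP2, a lysosomal membrane protein, was at 83.1 and 90.9 TPM at 0 g/liter, against 91.4 and 88.5 TPM at 4.5 g/liter, and was not called. The autophagy list had 16 called higher and 4 lower in the fit blocked on clone (13% and 30.3% of all genes). The lysosome list had 15 and 1 in that fit. CTSL lost the call without at least 1 of the 10 libraries (adjusted limma p up to 0.116 without Ctrl clone 1 at 4.5 g/liter).

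Thioredoxin, glutathione and NADPH genes had 12 of 26 called higher and 1, TXNIP, lower, against 7.88% and 16.9% of all genes. TXNRD1, thioredoxin reductase, was at 767 and 816 TPM at 0 g/liter, against 259 and 271 TPM at 4.5 g/liter (log2 fold change 1.57 ± 0.20 SE, adjusted p = 0.00123). SRXN1, which repairs peroxiredoxins, was at 165 and 182 TPM at 0 g/liter, against 43.2 and 45.3 TPM at 4.5 g/liter (log2 fold change 1.95 ± 0.22 SE, adjusted p = 7.28e-04). GCLM, of glutathione synthesis, was at 119 and 154 TPM at 0 g/liter, against 45.9 and 50.6 TPM at 4.5 g/liter (log2 fold change 1.47 ± 0.22 SE, adjusted p = 0.00279). All are targets of NRF2, which BACH1 opposes. SLC7A11, the cystine carrier, was at 44.3 and 47.4 TPM at 0 g/liter, against 31.4 and 30.3 TPM at 4.5 g/liter, and was not called. BACH1 itself was at 19.7 and 20.6 TPM at 0 g/liter, against 8.61 and 8.13 TPM at 4.5 g/liter (log2 fold change 1.17 ± 0.29 SE, adjusted p = 0.0181). Of 15 metallothioneins and zinc transporters 2 (13.3%) were called higher and 0 lower. MT1X was at 193 and 193 TPM at 0 g/liter, against 70.8 and 72.1 TPM at 4.5 g/liter. The metallothionein list had 6 called higher and 3 lower in the fit blocked on clone (13% and 30.3% of all genes). BACH1 and MT1X lost the call without at least 1 of the 10 libraries (adjusted limma p up to 0.1003, for BACH1 without Ctrl clone 2 at 4.5 g/liter).

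Calls among matrix and protease genes were mostly upward. Of 29 integrins and matrix proteases 7 (24.1%) were called higher, against 7.88% of all genes, and 1 lower. Of 29 collagens, laminins and matrix proteins 4 (13.8%) were higher and 0 lower. MMP1, the interstitial collagenase, which lies between MMP10 and MMP3 on chromosome 11, was at 29.4 and 34.6 TPM at 0 g/liter, against 1.63 and 2.41 TPM at 4.5 g/liter (log2 fold change 3.46 ± 0.68 SE, adjusted p = 0.00808). ADAMTS1, which cleaves proteoglycans, was at 53.2 and 55.2 TPM at 0 g/liter, against 7.05 and 7.63 TPM at 4.5 g/liter (log2 fold change 2.73 ± 0.32 SE, adjusted p = 8.95e-04). PLAUR, the urokinase receptor, was at 164 and 152 TPM at 0 g/liter, against 58.3 and 61.3 TPM at 4.5 g/liter (log2 fold change 1.39 ± 0.19 SE, adjusted p = 0.00184). MMP1, MMP3 and MMP10 all rose. TIMP3, a metalloprotease inhibitor, was also higher at 10.4 and 12.2 TPM at 0 g/liter, against 3.47 and 4.005 TPM at 4.5 g/liter (log2 fold change 1.37 ± 0.18 SE, adjusted p = 0.00141). CD44 was at 812 and 754 TPM at 0 g/liter, against 850.4 and 795 TPM at 4.5 g/liter, and was not called. The integrin and protease list had 12 called higher and 3 lower in the fit blocked on clone (13% and 30.3% of all genes). The matrix list had 11 and 7 in that fit. MMP1 lost the call without at least 1 of the 10 libraries (adjusted limma p up to 0.0636 without Ctrl clone 1 at 4.5 g/liter).

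Leaving out mitotic genes and TXNIP, the largest falls were in genes of no shared pathway. ARTN, a ligand of the GDNF family, was at 4.19 and 7.22 TPM at 0 g/liter, against 18.9 and 26.1 TPM at 4.5 g/liter (log2 fold change -1.83 ± 0.34 SE, adjusted p = 0.00625). NEURL1B, a ubiquitin ligase of Notch ligands, was at 2.12 and 2.14 TPM at 0 g/liter, against 7.88 and 7.59 TPM at 4.5 g/liter (log2 fold change -1.48 ± 0.21 SE, adjusted p = 0.00217). DMBT1, a secreted scavenger receptor, was at 9.29 and 9.81 TPM at 0 g/liter, against 26.8 and 27.7 TPM at 4.5 g/liter (log2 fold change -1.42 ± 0.19 SE, adjusted p = 0.00152). In each, both 0 g/liter libraries lay below both 4.5 g/liter libraries. Of the symbols without a known role, AC005832.4 was at 1.13 and 8.77 TPM at 0 g/liter, against 17.5 and 15.6 TPM at 4.5 g/liter, and AC109583.2 at 1.92 and 3.60 TPM at 0 g/liter, against 10.2 and 12.4 TPM at 4.5 g/liter. Nucleotide synthesis had the largest share of members called lower of any list, with 16 of 27, against 16.9% of all genes. It had 0 called higher and a median of -0.46. TYMS, thymidylate synthase, was at 148 and 166 TPM at 0 g/liter, against 333 and 321 TPM at 4.5 g/liter (log2 fold change -1.06 ± 0.10 SE, adjusted p = 3.91e-04). RRM1, of ribonucleotide reductase, was at 70.5 and 75.6 TPM at 0 g/liter, against 131 and 130.3 TPM at 4.5 g/liter (log2 fold change -0.83 ± 0.13 SE, adjusted p = 0.00301). CAD, the first enzyme of pyrimidine synthesis, was at 39.1 and 33.1 TPM at 0 g/liter, against 69.5 and 67.1 TPM at 4.5 g/liter. TYMS and RRM1 are made mainly by dividing cells. MKI67, a marker of dividing cells, was at 71.0 and 79.6 TPM at 0 g/liter, against 203 and 202 TPM at 4.5 g/liter, and its part in this result was not tested. With median-ratio scaling 5 members were called lower, and with quantile normalization 8. AC005832.4 (adjusted p = 0.0725) and CAD (adjusted p = 0.0622) were not called with median-ratio scaling. ARTN, AC005832.4, AC109583.2 and CAD lost the call without at least 1 of the 10 libraries (adjusted limma p up to 0.259, for AC005832.4 without Ctrl clone 1 at 0 g/liter).

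Of 39 ribosome biogenesis and RNA polymerase I genes 12 (30.8%) were called lower, against 16.9% of all genes, and 0 higher, and with median-ratio scaling 2 lower and 1 higher. POLR1A, the largest subunit of RNA polymerase I, was at 11.6 and 9.78 TPM at 0 g/liter, against 23.9 and 21.7 TPM at 4.5 g/liter (log2 fold change -1.03 ± 0.29 SE, adjusted p = 0.0327). RRP1B was at 11.1 and 10.6 TPM at 0 g/liter, against 21.8 and 21.9 TPM at 4.5 g/liter (log2 fold change -0.95 ± 0.14 SE, adjusted p = 0.00248) and PPAN at 30.2 and 30.2 TPM at 0 g/liter, against 50.5 and 57.4 TPM at 4.5 g/liter, both nucleolar proteins. Mitochondrial ribosomal proteins had 17 of 73 (23.3%) lower and 1 higher, and with median-ratio scaling 4 lower. The one higher, MRPL18, was at 293 and 279.7 TPM at 0 g/liter, against 60.1 and 56.2 TPM at 4.5 g/liter (log2 fold change 2.28 ± 0.36 SE, adjusted p = 0.00323). Of 76 cytosolic ribosomal proteins 0 were called either way, with a median of 0.12 and 5 higher and 0 lower at an unadjusted limma p under 0.05. Of these proteins 10 were higher in the fit blocked on clone, where 13% of all genes were. With median-ratio scaling 5 were higher, against 10.7% of all genes, and with quantile normalization 0 were higher and 2 lower. The ribosome biogenesis list had 1 called higher and 22 lower in the fit blocked on clone (13% and 30.3% of all genes). The mitochondrial ribosome list had 1 and 36 in that fit. POLR1A (adjusted p = 0.0989) was not called with median-ratio scaling. POLR1A lost the call without at least 1 of the 10 libraries (adjusted limma p up to 0.154 without Ctrl clone 1 at 4.5 g/liter).

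Of 30 YAP and SRF target genes 10 were called lower and 2 higher, against 16.9% and 7.88% of all genes. With median-ratio scaling 2 were lower and 3 higher, against 6.33% and 10.7%. ACTB, beta-actin and often a reference gene, was at 4174 and 3971 TPM at 0 g/liter, against 6396 and 6406 TPM at 4.5 g/liter (log2 fold change -0.65 ± 0.10 SE, adjusted p = 0.00338). AJUBA, a LIM protein that restrains the Hippo kinases, was at 59.8 and 61.8 TPM at 0 g/liter, against 128 and 147 TPM at 4.5 g/liter (log2 fold change -1.16 ± 0.35 SE, adjusted p = 0.0386), and AXL, a receptor kinase, at 494 and 443 TPM at 0 g/liter, against 751 and 725 TPM at 4.5 g/liter. ANKRD1, a classical YAP target, pointed the other way at 415 and 486 TPM at 0 g/liter, against 149 and 176 TPM at 4.5 g/liter, and was not called (log2 fold change 1.47 ± 0.62 SE, adjusted p = 0.116). CCN1, of the same list, was called lower (log2 fold change -0.49 ± 0.15 SE, adjusted p = 0.0446). CCN2 was higher and not called (log2 fold change 0.55 ± 0.22 SE, adjusted p = 0.0966). CNN1, the SRF target calponin, was higher at 12.9 and 13.4 TPM at 0 g/liter, against 1.10 and 1.16 TPM at 4.5 g/liter. SRF targets thus stood on both sides. The YAP and SRF list had 6 called higher and 16 lower in the fit blocked on clone (13% and 30.3% of all genes). ANKRD1 (adjusted p = 0.00114) and CCN2 (adjusted p = 0.00683) were called in the fit blocked on clone. AJUBA (adjusted p = 0.0784), AXL (adjusted p = 0.0629) and CCN1 (adjusted p = 0.250) were not called with median-ratio scaling. AJUBA, AXL, CNN1 and CCN1 lost the call without at least 1 of the 10 libraries.

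Of 32 chromatin regulators 6 (18.8%) were called higher and 4 (12.5%) lower, against 7.88% and 16.9% of all genes. KDM6B, the JMJD3 demethylase of H3K27, was at 27.6 and 24.9 TPM at 0 g/liter, against 2.92 and 4.53 TPM at 4.5 g/liter (log2 fold change 2.55 ± 0.32 SE, adjusted p = 0.00118), and KDM7A, of the same enzyme class, at 6.28 and 5.83 TPM at 0 g/liter, against 0.777 and 1.22 TPM at 4.5 g/liter. DNMT1, the maintenance DNA methyltransferase, was at 130.1 and 164 TPM at 0 g/liter, against 278 and 301 TPM at 4.5 g/liter (log2 fold change -0.98 ± 0.13 SE, adjusted p = 0.00152), and its partner UHRF1 at 39.1 and 40.9 TPM at 0 g/liter, against 95.3 and 101.4 TPM at 4.5 g/liter. KDM6B and KDM7A were thus higher, and DNMT1 and UHRF1 lower. Clustered histones had 7 of 21 (33.3%) called higher and 0 lower. Their main transcripts lack a poly(A) tail and are thus poorly captured by a poly(A) library. HIST2H2AA3 and HIST2H2AA4, the near-identical copies named above, are both among the 7. In KO clones HIST2H2AA3 fell, with a log2 fold change of -1.22, and HIST2H2AA4 rose, with 3.76. HIST1H2BD was at 24.7 and 29.9 TPM at 0 g/liter, against 6.26 and 6.77 TPM at 4.5 g/liter. The chromatin list had 8 called higher and 9 lower in the fit blocked on clone (13% and 30.3% of all genes). The histone list had 10 and 1 in that fit. KDM6B, KDM7A, DNMT1, UHRF1 and HIST1H2BD kept the call without any 1 of the 10 libraries, and HIST2H2AA3 and HIST2H2AA4 did not.

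The remaining lists held mostly genes that were not called. Of 32 proteasome subunits 5 (15.6%) were called lower, against 16.9% of all genes, and 0 higher. With median-ratio scaling 0 were lower and 1 higher. Of 32 translation factors 3 (9.38%) were called higher and 6 (18.8%) lower, against 7.88% and 16.9% of all genes. With median-ratio scaling 5 were higher and 1 lower. EIF1, which sets start codon choice, was at 883 and 871 TPM at 0 g/liter, against 484 and 489.6 TPM at 4.5 g/liter (log2 fold change 0.85 ± 0.14 SE, adjusted p = 0.00391), and EIF4G1, the scaffold of the cap complex, at 303 and 294 TPM at 0 g/liter, against 435 and 435 TPM at 4.5 g/liter (log2 fold change -0.54 ± 0.09 SE, adjusted p = 0.00362). Of 31 genes of AMPK, mTOR and insulin signalling 3 (9.68%) were higher and 8 (25.8%) lower, and with median-ratio scaling 3 and 1. IRS1, the insulin receptor substrate, was at 12.5 and 11.9 TPM at 0 g/liter, against 23.5 and 25.0 TPM at 4.5 g/liter, and FOXO1, which insulin signalling keeps out of the nucleus, at 7.56 and 7.35 TPM at 0 g/liter, against 2.98 and 2.55 TPM at 4.5 g/liter. The proteasome list had 1 called higher and 13 lower in the fit blocked on clone (13% and 30.3% of all genes). The translation factor list had 6 and 12 in that fit, and the AMPK and mTOR list 8 and 11. IRS1 (adjusted p = 0.0796) was not called with median-ratio scaling. IRS1 and FOXO1 lost the call without at least 1 of the 10 libraries (adjusted limma p up to 0.141, for IRS1 without Ctrl clone 2 at 4.5 g/liter).

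**Figure D4:**
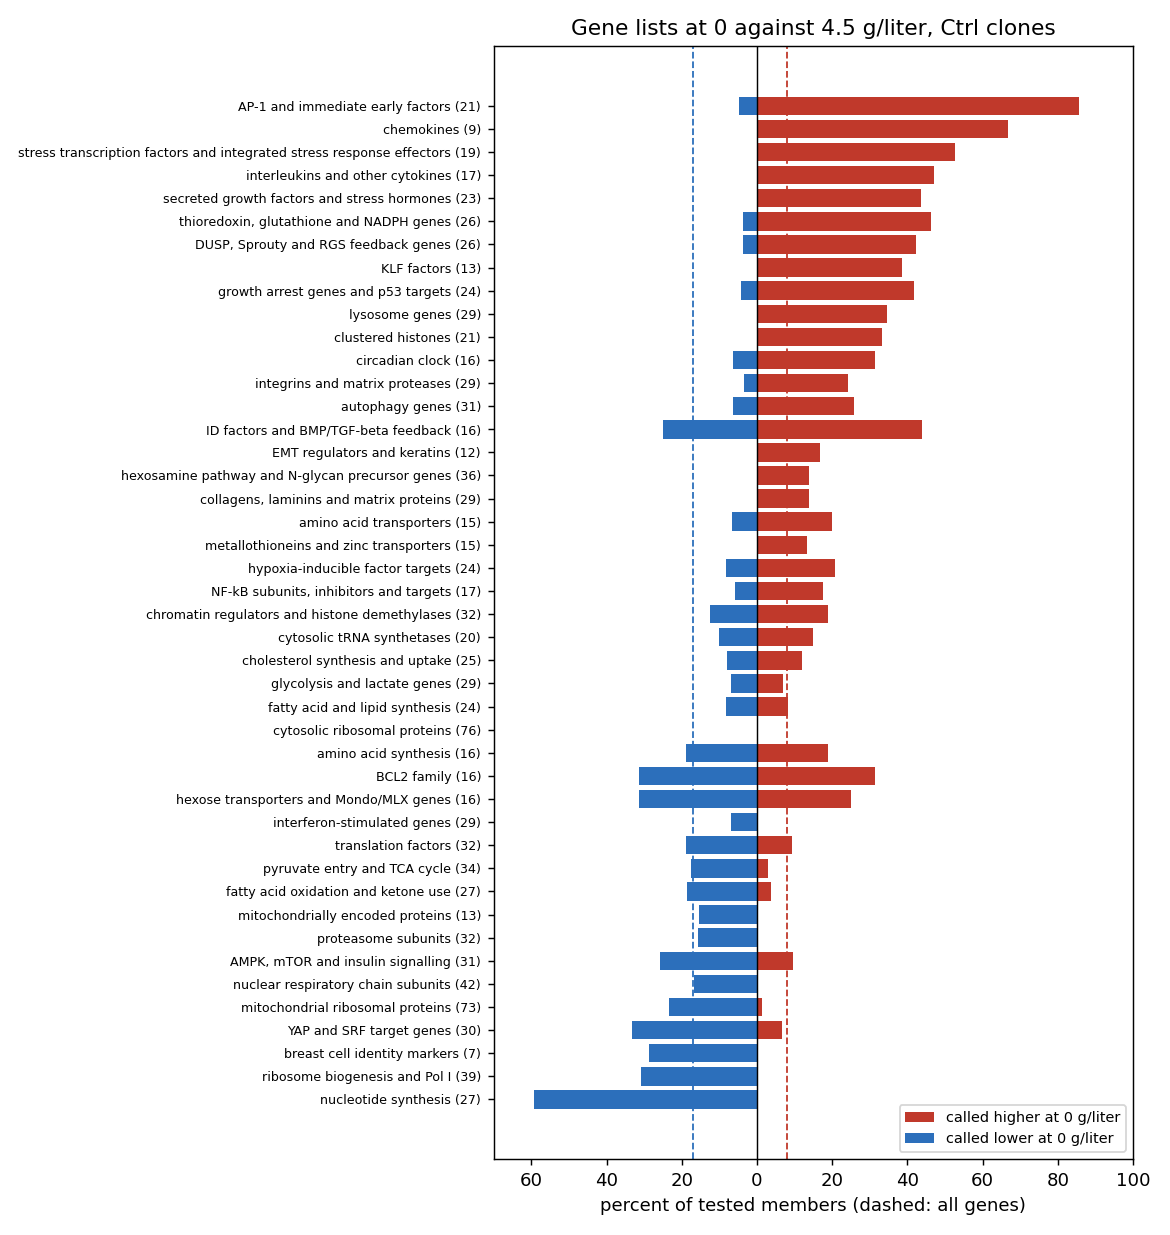
Percent of tested members of each gene list with at least 5 tested members called higher (red, to the right) or lower (blue, to the left) at 0 against 4.5 g/liter in Ctrl clones, lists ordered by the difference, with tested members in brackets. Dashed lines mark the 7.88% higher and 16.9% lower of all genes; immediate early factors reach furthest right and nucleotide synthesis furthest left.

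The Ctrl response was then set against that of the BACH1 KO clones. Of 12832 genes 1 (0.00779%) differed, HMOX1, heme oxygenase, the best known target of BACH1 (GRCh38, chr22:35380361-35394214, plus strand). In Ctrl clones it was at 532 and 568 TPM at 0 g/liter, against 6.58 and 8.78 TPM at 4.5 g/liter (log2 fold change 5.999 ± 0.26 SE, adjusted p = 4.02e-06). In KO clones it averaged 1723 ± 342 TPM at 0 g/liter and 379 ± 99.1 TPM at 4.5 g/liter (SD, n = 3 each), a log2 fold change of 2.20. The Ctrl minus KO difference was 3.80 ± 0.33 (SE, limma interaction, adjusted p = 0.0115). Without any 1 of the 4 Ctrl libraries the HMOX1 difference was 3.62 to 3.99 and no longer called (adjusted limma p of 0.0593 to 0.159), and in the fit blocked on clone its adjusted p was 6.87e-05. In 115 genes this interaction had an unadjusted limma p under 0.05. BACH1 transcript remained in the KO clones, at 17.9 ± 5.71 TPM at 0 g/liter and 3.81 ± 1.22 TPM at 4.5 g/liter (SD, n = 3 each), so its level does not check the knockout. The small number of clones limits how small a difference could be seen, and a gene that was not called is not shown to respond alike.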

How the data were processed

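RNA of MDA-MB-231 Ctrl clones and BACH1 KO clones was sequenced as poly(A) libraries, and the authors quantified it with kallisto 0.44.0 on a GRCh38 transcriptome after bcl2fastq 2.19. The deposited table holds the authors' TPM per gene symbol for 10 libraries. TPM keeps no read depth, so no count model, interval or detection floor was used. Of 36459 symbols, 27 that a spreadsheet had turned into dates were left out, and 12832 with at least 1 TPM in 2 of the 4 Ctrl libraries were tested.

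Differences of log2(TPM + 1) were tested with limma 3.58.1 in R 4.3.3, as 4 group means over all 10 libraries (6 residual degrees of freedom) with a mean-variance trend and Benjamini-Hochberg adjustment over all genes tested. The script was tested on simulated data. Same-numbered libraries come from the same clone, so limma was also run blocked on clone. Deviations of same-numbered libraries from their group means correlated at 0.114 in Ctrl and 0.442 to 0.635 in KO clones. The alternatives tried were median-ratio or quantile scaling, a lower pseudocount, changed filters and thresholds, other estimates of the spread, and leaving out each library. The members and the 46 gene lists were chosen with earlier results of these data known. Named genes were the 20 largest called changes per direction, with a mean of 5 TPM or more in the higher group and no overlap between groups, the 20 highest near-zero genes, up to 6 called and the first 3 members of each list, and genes the study discusses; some of these genes are not reported here. Symbols were matched to GENCODE v44 for biotype and position. A sequence element was sought in RefSeq promoters of 300 bases.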

Additional observations from a re-analysis of the deposited data

Results flagged for a closer look

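HMOX1 responded differently in Ctrl and BACH1 KO clones by a test of the difference itself. The Ctrl minus KO difference of the log2 fold changes was 3.80 (limma interaction, adjusted p = 0.0115). Without any 1 of the 4 Ctrl libraries it was 3.62 to 3.99 and did not keep its call. With glucose the KO clones already averaged 379 TPM, against 6.58 and 8.78 TPM in Ctrl clones. Without glucose they averaged 1723 TPM, against 532 and 568 TPM. The log2 fold change was 5.999 in Ctrl clones and 2.20 in KO clones, and both Ctrl clones and all 3 KO clones were higher at 0 g/liter.

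AP000781.2, from the list of genes near zero with glucose, was higher at 0 g/liter in both Ctrl clones and lower at 0 g/liter in all 3 KO clones. The Ctrl minus KO difference of the log2 fold changes was 4.63 ± 0.56 (SE, limma interaction, adjusted p = 0.0563), which missed the threshold, and over the alternatives the adjusted p ran from 0.00217 to 0.544. It was at 11.3 and 12.2 TPM at 0 g/liter, against 0.329 and 0.436 TPM at 4.5 g/liter in Ctrl clones, and averaged 10.6 TPM at 0 g/liter and 27.3 TPM at 4.5 g/liter in KO clones.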

How the results depend on the processing

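Counts of calls moved with the choices, while no called gene named here changed direction. For genes called higher, against 1011, there were 1673 with the clone as a replicate block, 2294 with that block on the 4 Ctrl libraries, 1940 with group means of these 4, 434 at an adjusted p under 0.01 and 635 with a log2 fold change of at least 1 in size. Leaving out 1 library gave 353 to 1292. For genes called lower, against 2171, there were 812 with median-ratio scaling, 1252 with quantile normalization, 3892 with the block, 5089 with the block on the 4 Ctrl libraries, 4365 with group means of these 4, 687 at an adjusted p under 0.01 and 194 with a log2 fold change of at least 1 in size. Leaving out 1 library gave 431 to 2710. The cause of these moves was not tested, apart from the smaller number of libraries in the last.

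Genes that responded differently in Ctrl and KO clones numbered 3 with a pseudocount of 0.1, 5 with no filter, 3 without mitochondrially encoded genes, 3 with the block, 3 with no trend, and 0 to 2 with 1 library left out. The 72 genes near zero with glucose became 42 at limits of 1 and 5 TPM, and 87 to 114 without 1 Ctrl library, when fewer libraries have to meet the limits. The 1 gene near zero without glucose became 6 at limits of 0.2 and 1 TPM, 0 at 1 and 5 TPM, 0 with median-ratio scaling, 4 without mitochondrially encoded genes, and 6 to 14 without 1 Ctrl library.

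Changes of sign were limited to genes that were not called. With median-ratio scaling the log2 fold change was 0.13 for CD44, 0.18 for GNPNAT1, 0.14 for LAMP2, 0.14 for MT-ND1 and 0.14 for SNAI2, and with quantile normalization 0.14 for GNPNAT1, 0.077 for LAMP2 and 0.11 for SNAI2. HK1 was at -0.037 without mitochondrially encoded genes. Leaving out 1 library gave -0.035 to 0.060 for HK1, -0.12 to 0.097 for GNPNAT1, -0.11 to 0.015 for LAMP2 and -0.16 to 0.047 for SNAI2. Depth, which TPM does not keep, limits genes at a few TPM most.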
